A study of Mus musculus with 4 samples.

Results

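The 8 genes described here are targets of the transcription factor p53 or restrain cell growth: Cdkn1a, Mdm2, Ccng1, Gadd45b, Perp, Sesn1, Bak1 and Cdkn2c. They were chosen by gene symbol, with earlier results of these data known. A gene counted as measured where its named probes gave a value on all 4 arrays of the series. This held for 8 of 8 and for 6327 of 9123 genes in all. RNA of NIH3T3 cells carrying a transfected Erbb2 gene, which the labels describe as overexpressing it, was set against RNA of the same mouse fibroblast line without the transgene, with normal Erbb2 expression, on two-colour arrays. Arrays 1 and 2 had the transfected sample in Cy5, and the dyes were swapped on arrays 3 and 4. The labels call the 4 arrays technical replicates, so there was 1 sample per line, and errors and p-values cover the spread between arrays and not between cultures or transfections. Values are log2 ratios, whose likely but unstated direction is transfected over untransfected, and all signs would turn together under the other reading. The labels give neither the promoter that drove Erbb2 nor whether the transfected line was a clone or a pool.

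p53 is held at a low level in unstressed cells by Mdm2, a ubiquitin ligase that is itself made from a p53 target gene. After DNA damage or oncogene signalling p53 accumulates and raises genes that stop the cell cycle, repair DNA or start apoptosis. NIH3T3 cells keep p53 but are known to have lost the locus of Cdkn2a and Cdkn2b, so the link from oncogenes to p53 through the Arf protein is missing in this line, with or without the transgene. No probe was named for Erbb2, Trp53 (the mouse p53 gene) or Cdkn2a in the platform annotation used, so the labels were not checked by the transfected gene and the level of p53 mRNA was not analysed here.

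p53 binds paired copies of a 10-base element, so the 250 bases before the transcription starts were searched for the p53 decamer consensus. Of the 8 genes, 7 had 10 such windows in the RefSeq table (GRCm38.p6), and 4 genes, Cdkn1a, Mdm2, Ccng1 and Sesn1, held a match in at least 1 window. The consensus reads the same on both strands and was present in 7.13% of 32851 windows of this length. The windows of Cdkn1a, Mdm2 and Ccng1 are shown as examples with matches, in capitals, and that of Gadd45b because this gene had the lowest ratio of the 8. The Sesn1 window with a match, AAGCTTGTTT, is not shown. The Cdkn1a window (chr17:29090729-29090978, plus strand) lies before the more upstream of its annotated starts. The others are chr10:117710759-117711008 (minus strand) for Mdm2, chr11:40755287-40755536 (minus strand) for Ccng1 and chr10:80929841-80930090 (plus strand) for Gadd45b.
Cdkn1a: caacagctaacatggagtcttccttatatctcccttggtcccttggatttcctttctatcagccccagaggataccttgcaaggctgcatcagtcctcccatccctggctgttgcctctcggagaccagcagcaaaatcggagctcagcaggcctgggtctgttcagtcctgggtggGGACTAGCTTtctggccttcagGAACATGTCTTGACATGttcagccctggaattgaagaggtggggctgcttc
Mdm2: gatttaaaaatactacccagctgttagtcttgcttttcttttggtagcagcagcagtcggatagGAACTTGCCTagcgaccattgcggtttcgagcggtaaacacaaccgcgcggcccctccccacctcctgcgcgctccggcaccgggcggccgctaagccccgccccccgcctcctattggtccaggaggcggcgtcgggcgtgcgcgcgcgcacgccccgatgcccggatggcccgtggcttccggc
Ccng1: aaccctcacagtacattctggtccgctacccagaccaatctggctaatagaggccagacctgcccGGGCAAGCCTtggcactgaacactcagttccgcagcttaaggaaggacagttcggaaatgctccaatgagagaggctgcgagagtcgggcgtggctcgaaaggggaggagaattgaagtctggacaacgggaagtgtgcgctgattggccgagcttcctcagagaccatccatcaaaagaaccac
Gadd45b: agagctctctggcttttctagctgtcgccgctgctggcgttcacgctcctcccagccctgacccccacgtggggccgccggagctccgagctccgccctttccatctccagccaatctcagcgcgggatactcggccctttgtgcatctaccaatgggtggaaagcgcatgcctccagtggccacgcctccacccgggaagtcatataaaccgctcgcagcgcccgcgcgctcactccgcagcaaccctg
In Cdkn1a the decamers GGACTAGCTT and GAACATGTCT began 73 and 51 bases before the start. The latter overlaps a match to CATGNNNNNNCATG, the pair of core tetramers at the spacing of adjoining decamers, which 0.49% of all windows held and no other window of the 8 genes. The decamer of Mdm2, GAACTTGCCT, began 186 bases before its start and that of Ccng1, GGGCAAGCCT, 185 bases before. The Gadd45b window held no decamer but a TATAAA box 46 bases before the start, a motif of 12.4% of windows on either strand. These matches describe the sequence only.

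Cdkn1a encodes a cyclin-dependent kinase inhibitor and is the classical arrest target of p53. Its log2 ratios were 0.23, 0.09, 0.16 and 0.35 on arrays 1 to 4. All 4 lay slightly above 0, with a mean of 0.21 ± 0.11 (SD, n = 4 arrays), or 1.16-fold. The arrays lay closer together than for nearly any other gene, since the SD was at the 0.60th percentile of all genes tested. The mean did not differ from 0 in limma's test over all genes (adjusted p = 0.779). The nearby genes by Euclidean distance over the 4 log2 ratios were Ifngr2 (0.14), Irs1 (0.15) and Foxm1 (0.16), but 147 of 6326 genes lay within 0.5.

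Mdm2, which marks p53 for degradation, had log2 ratios of -0.10, -0.61, -0.56 and -0.37. All 4 arrays lay below 0 and the mean was -0.41 ± 0.23 (limma, adjusted p = 0.600). Both of its probes lie in lower rows of the table, where the values of arrays 2 to 4 had to be read 3 rows higher to line up with array 1. As deposited, with no row moved, the mean of Mdm2 was -0.98. The probe at row 9852 had 0.73 on array 1 and between -0.84 and -0.45 on the others. The probe at row 14270 had -0.94, -0.73, -0.27 and -0.29 and thus lay below 0 on every array. Mia3, Gemin2 and Fap had the most similar values to Mdm2 (distances of 0.08, 0.17 and 0.17).

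Ccng1 encodes cyclin G1, a p53 target that acts on Mdm2 through a phosphatase. Its log2 ratios were -1.06, -0.55, -1.64 and -0.33, all below 0, with arrays 1 and 3 lower than arrays 2 and 4. The mean was -0.89 ± 0.59, or 1.86-fold lower (limma, unadjusted p = 0.0484, adjusted p = 0.431). It was -0.56 without array 3 and -1.22 without array 4. Both probes used lie in the first 6000 rows and both were below 0 on all 4 arrays, the probe at row 3909 with a mean of -0.48 ± 0.23 and that at row 4179 with -1.31 ± 0.96. Another probe of Ccng1, at row 6477, lies where the row offset was unclear and was not used. Its values as deposited were -0.18, -0.03, -0.015 and 0.66 on arrays 1 to 4. With all rows as deposited, this probe included, the mean of Ccng1 was -0.56. Slc25a30, Tmem126a and Mtrr were closest to Ccng1 (0.09, 0.15 and 0.33), out of only 9 genes within a distance of 0.5.

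**Figure D1:**
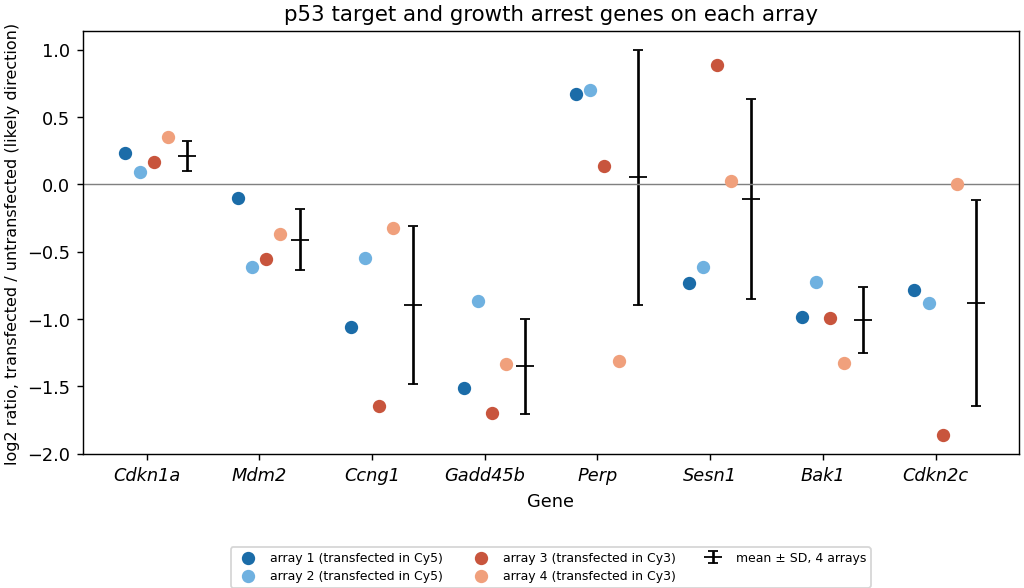
Log2 ratios (vertical axis, transfected over untransfected in the likely direction) of the 8 genes on each array, as points coloured by array and dye orientation, with the mean ± SD over 4 arrays in black. With the probes of a gene averaged, Cdkn1a sits just above 0 on every array and Mdm2, Ccng1, Gadd45b and Bak1 sit below 0. Perp, Sesn1 and Cdkn2c have arrays on both sides.

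Gadd45b is a stress-inducible gene of the growth arrest and DNA damage family whose protein activates stress kinases. It was the lowest of the 8 genes, with log2 ratios of -1.51, -0.87, -1.70 and -1.33. The mean was -1.35 ± 0.36, or 2.55-fold lower, at the 3.46th percentile of all genes (limma, unadjusted p = 0.00532, adjusted p = 0.303). Its probes lie 12 rows apart and differed strongly. The probe at row 1895 had -2.51, -1.86, -3.28 and -1.85, whereas that at row 1883 had -0.51, 0.12, -0.11 and -0.81. The difference of 2.05 between the probe means was at the 97.2th percentile of 969 genes with exactly 2 fully measured probes, whose median difference was 0.45. The annotation gives both probes the same transcript accession, so the ratio of Gadd45b stands at -2.38 ± 0.68 or -0.33 ± 0.41 depending on the probe.

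Sesn1 encodes sestrin 1, which restrains growth signalling through the mTOR kinase, and Perp a membrane protein of p53-dependent apoptosis that is also part of desmosomes. Sesn1 had log2 ratios of -0.74, -0.61, 0.89 and 0.02. Perp had 0.67, 0.70, 0.14 and -1.31. Its probes had means of 0.45 at row 1314, with no value on array 3, and -0.27 at row 2809. In both genes the sign of the mean followed the dye. In Perp, however, array 3 lay above 0 as arrays 1 and 2 did, and in Sesn1 array 4 lay near 0. With the transfected sample in Cy5 and in Cy3, the means were -0.68 and 0.46 for Sesn1 and 0.69 and -0.59 for Perp. The overall means of -0.11 ± 0.74 and 0.05 ± 0.94 did not differ from 0 in limma's test (adjusted p = 0.904 and 0.961). The dye means of 43.3% of all genes tested had opposite signs, and so did those of 2 of the 8 genes.

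Bak1 encodes a protein of the Bcl2 family that opens the outer mitochondrial membrane in apoptosis. Its log2 ratios were -0.98, -0.73, -0.99 and -1.33, a mean of -1.01 ± 0.25, or 2.01-fold lower (limma, unadjusted p = 0.0144, adjusted p = 0.380). Its probes disagreed, which the small spread of these averages does not show. The probe at row 4346 had -0.98, -0.34, 0.14 and 0.27, with a mean of -0.23 ± 0.57. The probe at row 20213 had no value on array 1 and -1.11, -2.12 and -2.93 on arrays 2 to 4, read 4 rows higher. Array 1 thus rests on the former probe and the other arrays on the average of both. With probes of the first 6000 rows alone, Bak1 had a mean of -0.23 (limma, unadjusted p = 0.493, adjusted p = 0.778). As deposited, with no row moved, its mean was -0.09.

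Cdkn2c encodes an inhibitor of the cyclin D-dependent kinases. Its only probe had log2 ratios of -0.79, -0.88, -1.86 and 0.01, so 3 arrays lay below 0 and array 4 at 0. The mean was -0.88 ± 0.77 (limma, unadjusted p = 0.0748, adjusted p = 0.476). The mean was -0.41 without array 3 and -1.35 without array 4. The probe lies at row 8028, close to where the offset of 3 rows was taken to begin, and as deposited, with no row moved, the mean was -0.02.

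**Figure D2:**
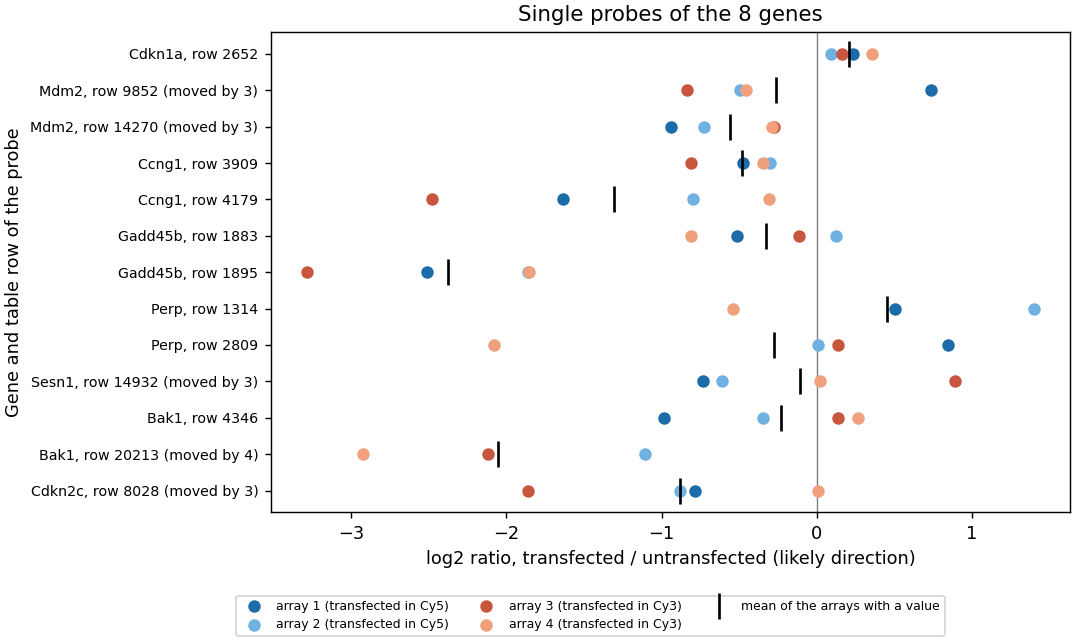
Log2 ratios (horizontal axis) of the 13 probes used, each on its own line with its row in the table and any row move, as points coloured by array and dye orientation, with a black bar at the mean of the arrays with a value. The probes of Gadd45b and of Bak1 lie apart, at means of -2.38 and -0.33 and of -2.05 and -0.23.

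The 8 genes were chosen with earlier results of these data known, so shares set beside those of all genes are descriptive only. Across the 8 genes the median of the mean log2 ratios was -0.65, against -0.08 for all 6327 genes, and 6 of 8 means were below 0, where 56.1% of all genes were. Limma called 0 of the 8 genes at an adjusted p under 0.05, and 0% of all genes (smallest adjusted p = 0.105). At an unadjusted p under 0.05 there were 3, Gadd45b, Bak1 and Ccng1, all below 0, and 7.49% of all genes met that rule below 0 and 11.5% on either side. Mdm2, Ccng1, Gadd45b and Bak1 lay below 0 on all 4 arrays (13.0% of all genes) and Cdkn1a above 0 on all 4 (9.58%), so 5 of 8 had 1 sign on every array, where 22.6% of all genes did. These signs are those of averages over probes. Of the 4 genes below 0, only Ccng1 lay below 0 on every array with each of its probes used. A mean of -1 or lower was held by 2 genes, Gadd45b and Bak1 (7.70% of all genes), and a mean of 1 or higher by 0 (3.87%). From lowest to highest the order was Gadd45b, Bak1, Ccng1, Cdkn2c, Mdm2, Sesn1, Perp and Cdkn1a, and in each of the 7 neighbouring pairs the gap was smaller than the larger SD. The count of 3 at an unadjusted p under 0.05 became 1, Gadd45b, without array 1, in rows 1 to 6000 alone, with rows as deposited or with first-row probes where a gene had them. Ccng1 left it without array 1, 2 or 3 and after centring of the arrays, with or without scaling. It also left with genes of at least 3 arrays included or with values beyond 15 kept. Bak1 left it without array 1 or 4 and with every probe on its own, and Cdkn2c entered it without array 4. Gadd45b was counted in every setting that measured it. With every probe on its own, however, a gene took the smallest p of its fully measured probes. In all other settings the disagreeing probes of Gadd45b were averaged.

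**Figure D3:**
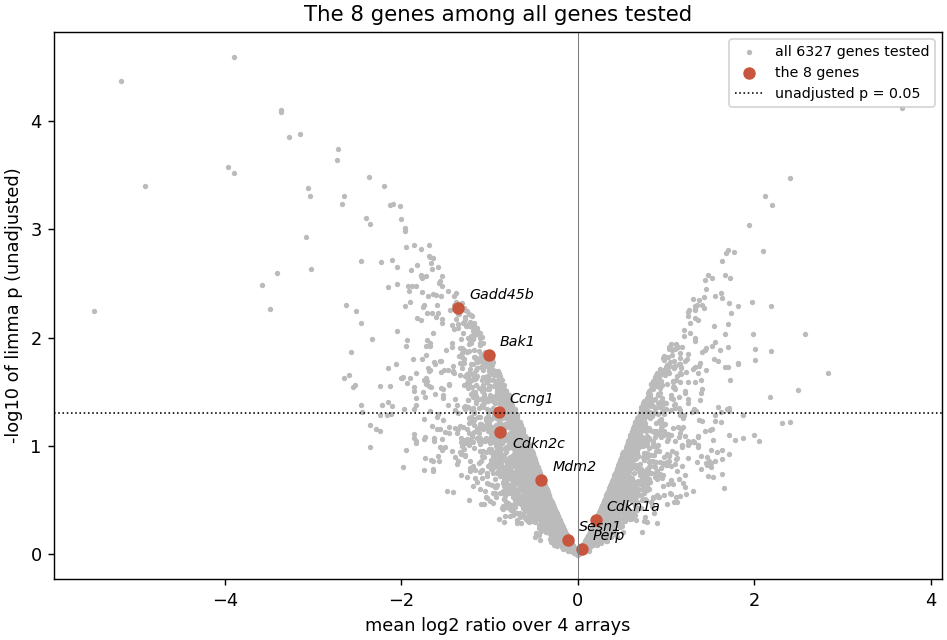
Mean log2 ratio over 4 arrays (horizontal axis) against -log10 of limma's unadjusted p (vertical axis) for all 6327 genes in grey and the 8 genes in red, with a dotted line at an unadjusted p of 0.05. Gadd45b, Bak1 and Ccng1 lie above the line on the negative side, and no gene tested passed at an adjusted p under 0.05.

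The correlations behind the row reading were low. Across probes, which are not independent replicates, array 1 correlated with arrays 2 to 4 at a mean Pearson r of 0.114 in the first 6000 rows as they stand. In windows of 1001 rows around probes in the lower rows, r at an offset of 3 was 0.143 for Cdkn2c, 0.054 and 0.040 for the probes of Mdm2 and 0.075 for Sesn1, the highest of offsets 0 to 6 in each. Around the lower Bak1 probe, in a window of 643 rows cut short by the end of the table, r was 0.107 at an offset of 4, again the highest. For the Mdm2 probe at row 14270, where r was 0.040, the next highest was 0.025 at an offset of 6. Of the 13 probes used, 8 lie in the first 6000 rows, and Cdkn1a, Ccng1, Gadd45b and Perp rest on these alone. Between 76.8% and 94.6% of 20355 spots had a value on an array, and over the genes tested 2 arrays correlated at r between 0.123 and 0.202.

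Other genes of the pathway were taken from 7 lists with 126 genes, of which 55 were measured on all 4 arrays, the 8 genes included. The lists were also chosen with earlier results of these data known. Of the 47 others, 5 had an unadjusted p under 0.05 below 0 and 3 above 0 (7.49% and 4.05% of all genes), limma called 0, and the median was -0.18. Regulators of p53 and DNA damage kinases had a median of -0.20 over 7 of 20 genes, with 0 genes at an unadjusted p under 0.05 on either side. The kinase genes Atm, Atr, Chek1, Chek2 and Prkdc were not among the 7, and Atr and Prkdc had no named probe. Atm had -1.936, -2.535 and -1.175 on arrays 1, 2 and 4. Chek2 had 1.008 and -0.091 on arrays 1 and 3, and Chek1 -0.130 on array 2 alone. Among p53 targets of arrest, repair and redox control, 1 of 9 measured genes, Ccng1, met that rule, and the median was -0.24. The well-known targets Bax, Bbc3, Pmaip1 and Gdf15 had no named probe, and Gadd45a and Btg2 had values on 2 arrays each.

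Among p53 targets of apoptosis, Bak1 below 0 and Triap1 above 0 met the rule, out of 7 measured genes with a median of -0.12. Triap1, a p53-regulated inhibitor of apoptosis, had log2 ratios of 0.35, 3.12, 2.39 and 1.42 (mean 1.82 ± 1.20, limma, adjusted p = 0.381). Without array 2 the mean was 1.13 (limma, unadjusted p = 0.0572), and without array 3 it was 1.58 (unadjusted p = 0.0579 in limma). The probe lies in the moved rows. The 9 measured genes of the Bcl2 family had a median of -0.18, and Bak1 was the only one at an unadjusted p under 0.05. The other 8 had mixed signs over the arrays.

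Of the CDK inhibitors 3 of 8 were measured on all arrays. Besides Cdkn1a and Cdkn2c this was Cdkn2d, which inhibits the same kinases as Cdkn2c, with 1.05, 1.95, -0.25 and 0.65 (mean 0.85 ± 0.91, limma, unadjusted p = 0.0505, adjusted p = 0.432). Array 3 lay below 0 and the others above. Cdkn1b had values of 1.46, -1.90 and 0.40 on arrays 1, 3 and 4, and Cdkn1c -0.97 and -1.62 on arrays 1 and 4.

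The list of Gadd45 and growth arrest genes had a median of -0.84 over 10 of 17 genes. The median was -0.33 over the 9 without Gadd45b, -0.33 over 11 genes with values on at least 3 arrays, and -0.08 with rows as deposited. Its genes lay on both sides of 0, with 4 below and 2 above at an unadjusted p under 0.05. Ddit4, a stress-induced inhibitor of mTOR signalling, had -1.53, -1.68, -1.74 and -1.77, a mean of -1.68 ± 0.11 (limma, adjusted p = 0.268). Gas1, a membrane protein that rises in resting fibroblasts, had -0.18, -2.41, -3.46 and -1.73, and Gas6, the ligand of Axl family receptors, -0.42, -1.29, -4.11 and -0.19. The averages of these 3 genes lay below 0 on every array, those of Gas1 and Gas6 far apart. The probes of Gas6 disagreed, since that at row 5910 had -3.07, -0.76, -4.11 and 0.03, and that at row 15069 had 2.22, -1.82 and -0.42 on arrays 1, 2 and 4 and no value on array 3. The mean of Gas6 (-1.50) was -0.53 without array 3 and -2.48 without array 4. Ddit3, a transcription factor of the stress response, had 0.95 on array 1 and -2.79, -3.54 and -3.22 on arrays 2 to 4. Its mean of -2.15 was -1.21 without array 2. The unadjusted p of Gas1 in limma was 0.0535 without array 2.

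On the other side, Btg1, which slows proliferation, had log2 ratios of 1.26, 0.68, 1.67 and 0.73 (mean 1.08 ± 0.47, limma, adjusted p = 0.382). The stress-inducible gene Ndrg1 had 1.70, 1.07, 0.85 and 1.20 (mean 1.21 ± 0.36, limma, adjusted p = 0.338). Both lay above 0 on every array, and their probes lie in the moved rows, as do those of Gas1 and Ddit3. The unadjusted p of Btg1 was 0.0925 without array 1 and 0.0749 without array 3, and that of Ndrg1 was 0.0532 without array 1 (limma).

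Pocket proteins hold back E2F transcription factors, and the kinases that Cdkn1a and Cdkn2c inhibit release them. Of 12 measured genes among G1 cyclins, CDKs and pocket proteins, 2 had an unadjusted p under 0.05, both pocket protein genes below 0, and the median was -0.11. Rbl2 had -1.32, -1.41, -1.03 and -1.05 (mean -1.20 ± 0.19, limma, adjusted p = 0.310). Its probes differed as those of Gadd45b did, with means of -2.21 at row 279 and -0.19 at row 2155. Rbl1 had -0.86, -3.49, -2.99 and -0.42 (mean -1.94 ± 1.53, limma, adjusted p = 0.389). Without array 2 its mean was -1.28 (limma, unadjusted p = 0.118), and without array 3 it was -1.29 (unadjusted p = 0.0918 in limma). Rb1 had a mean of -0.42, Cdk4 -0.45 and Cdk2 -0.15, none at an unadjusted p under 0.05.

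**Figure D4:**
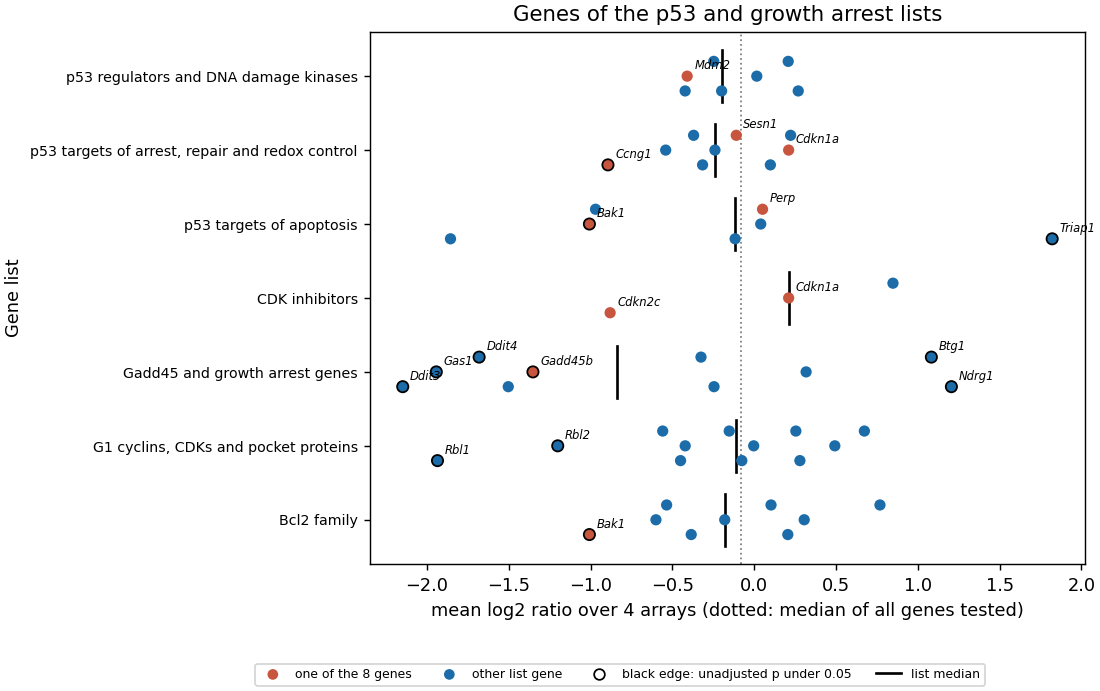
Mean log2 ratio over 4 arrays (horizontal axis) of each measured gene of the 7 lists, 1 line per list, with the 8 genes in red, other genes in blue, black edges at an unadjusted p under 0.05, a black bar at the list median and a dotted line at the median of all genes tested (-0.08). Growth arrest genes reach from -2.15 (Ddit3) to 1.21 (Ndrg1), while the measured regulators of p53, without Atm, Atr, Chek1, Chek2 and Prkdc, lie between -0.42 and 0.27.

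Since the files hold ratios, the labelled cell type could not be checked against marker levels. Of 14 fibroblast markers 8 were measured, of which 4 collagen and matrix genes (Col1a1, Col1a2, Fn1 and Sparc) lay below 0 at an unadjusted p under 0.05. The other 4 had means above 0, none at an unadjusted p under 0.05, with 0.89 for Col3a1, 0.66 for Vim, 0.45 for Pdgfra and 0.24 for S100a4, of which Vim alone lay above 0 on all arrays. The median of the 8 was -1.45. Epithelial markers had a median of 0.35 (3 of 9 measured, array medians from -0.40 to 1.26), leukocyte markers -0.70 (2 of 10), endothelial markers -0.06 (5 of 8) and muscle markers 0.11 (2 of 8). Among these other cell types, Lyz2 of leukocytes (mean -1.17) and Cldn3 of epithelial cells (mean 0.86) had an unadjusted p under 0.05 in limma. The part of all these markers in the ratios of the 8 genes was not tested.

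**Figure D5:**
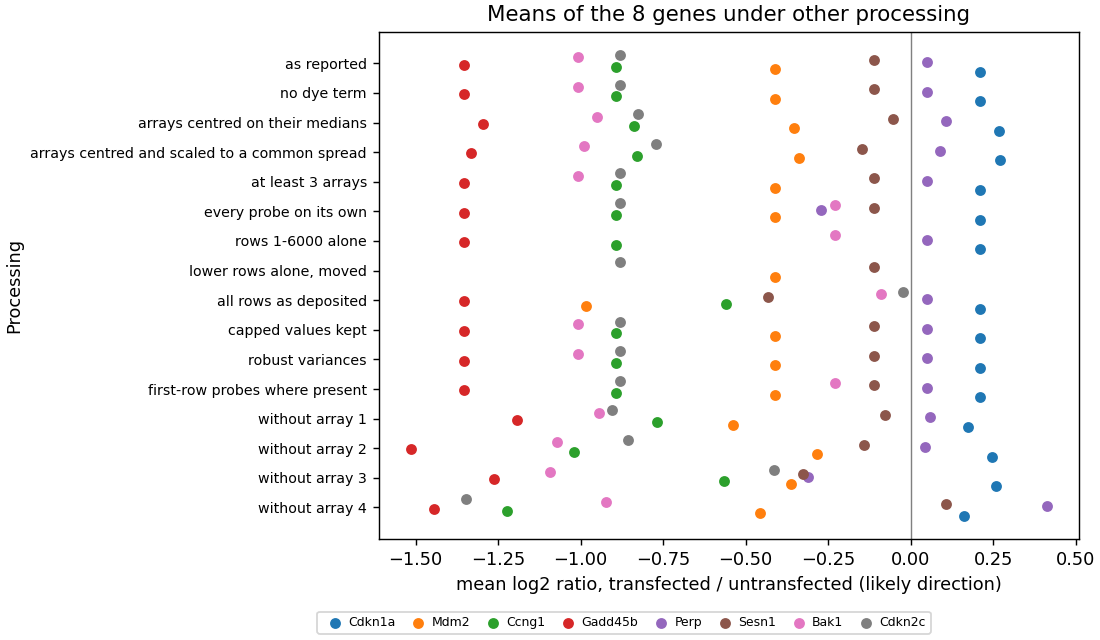
Mean log2 ratio (horizontal axis) of each of the 8 genes, 1 colour each, under the processing reported and 15 other ways of processing (vertical axis). Gadd45b stays between -1.51 and -1.19 and Cdkn1a between 0.16 and 0.27. Every mean shown for Gadd45b averages both of its probes, whose own means were -2.38 and -0.33. Its probes and that of Cdkn1a lie in the first 6000 rows, so choices of rows or probes could not move these genes. Bak1 moves from -1.01 to -0.23 with first-row probes and to -0.09 with rows as deposited, where Cdkn2c moves to -0.02.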

How the data were processed

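The authors' deposited values are log2 ratios of both channels of each array plus a constant that differs between arrays. Over the genes tested the medians of arrays 1 to 4 were 0.095, -0.013, -0.142 and -0.163. Signs in this report are taken against 0 and not against these medians, except where arrays were centred. How images were read and values corrected or normalized is not given in the sources used here. Scale and likely direction were read from the values: values beyond 15, which were dropped, are positive on arrays 1 and 2 and negative on the dye-swapped pair. Rows 1 to 6000 were used as they stand. For probes in rows 8001 to 18000, arrays 2 to 4 were read 3 rows higher, and from row 18301 on 4 rows higher, while 2300 rows were left out. Of 20355 probes, 14030 had 1 gene symbol in the platform annotation. All 131 symbols used from the lists matched RefSeq (GRCm38.p6) by gene identifier. Probes of a gene were averaged per array.

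Genes with a value on all 4 arrays were tested with limma 3.58.1 in R 4.3.3 (lmFit and eBayes on the mean over both dye orientations, with a dye term), with Benjamini-Hochberg adjustment over all genes. The fit was tested on simulated data. The members, lists and row moves were chosen with earlier results of these data known. Genes named beside the 8 are those of the lists at an unadjusted p under 0.05, or with 1 sign on all arrays and a mean of at least 1 in size, the CDK inhibitors, and the 3 nearest genes of Cdkn1a, Mdm2 and Ccng1. Some others were named after their values were seen, as examples of absent or small differences. Alternatives covered the dye term, centring and scaling, missing values, probes, rows, capped values, variances and each array left out.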

Additional observations from a re-analysis of the deposited data

Results flagged for a closer look

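Of 18 genes checked, Ddit3 had 1 array far from the others. Array 1 lay at 0.95 and arrays 2 to 4 between -3.54 and -2.79, a gap of 0.834 of the whole range. Its only probe lies at row 14221, in the moved rows, and its mean was -3.08 without array 1 and -0.08 with rows as deposited. Chance flags about 1 in 20 groups.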

How the results depend on the processing

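Limma called 6 genes in place of 0 where the dye term was left out, 3 after scaling to a common spread and 6 with every probe on its own, but 0 without any 1 array. None of the 8 genes was called under any setting run, with adjusted p-values from 0.203 (Gadd45b, without array 4) upwards. Genes at an unadjusted p under 0.05 numbered 276 of 2238 in rows 1 to 6000 alone and 329 to 990 with 1 array left out, lowest without array 2. The median of the 8 genes (-0.646) was -0.342 with every probe on its own, -0.230 over 5 genes in rows 1 to 6000, -0.410 over 3 genes in the lower rows, -0.261 with rows as deposited and -0.320 with first-row probes where present, an alternative added after the data were seen. It ranged from -0.690 to -0.389 with 1 array left out, nearest to 0 without array 3. Perp turned to -0.273 with every probe on its own, where only its fully measured probe counted, and ranged from -0.311 (without array 3) to 0.412. Sesn1 ranged from -0.433 (rows as deposited) to 0.106, above 0 without array 4. The other 6 genes kept their sign in every setting that gave a value.

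The 11 list genes at an unadjusted p under 0.05 became 4 in rows 1 to 6000, 7 in the lower rows, 7 with rows as deposited and 7 to 16 with 1 array left out, lowest without array 2. The median of p53 regulators was -0.487 in rows 1 to 6000 and ranged from -0.185 to -0.066 with 1 array left out, that of growth arrest genes was -0.080 with rows as deposited, and -0.326 over 11 genes with at least 3 arrays. The median of apoptosis targets ranged from -0.788 to -0.032 with 1 array left out, lowest without array 4, and turned to 0.04 over 9 genes with at least 3 arrays and with capped values kept. That of G1 cyclins, CDKs and pocket proteins turned to 0.05 in the lower rows. The Bcl2 family median was 0.102 without array 2. Fewer genes and probes were measured within parts of the table; otherwise the cause was not tested. Each ratio already pairs both samples within 1 array, and no further pairing was used because all arrays form 1 group of ratios. Depth is not defined for these ratios, and the 4 arrays limit the precision.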
